A study of Mus musculus with 8 samples.

Results

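The genes of prostaglandin synthesis, sensing and breakdown were followed in whole mouse kidney after an inducible deletion of Tfap2b. The members were taken by name: the prostaglandin E2 receptor genes Ptger1, Ptger2, Ptger3 and Ptger4, the prostaglandin F receptor gene Ptgfr, the cyclooxygenase genes Ptgs1 and Ptgs2, the synthase genes Ptges and Ptgds, and the dehydrogenase gene Hpgd. All 10 had a row among the 37583 genes counted, and 9 passed the filter on low counts. The study set 4 kidneys of knockout mice, labelled b-actinCreERT2+TFAP2Bfl/fl, against 4 kidneys of control littermates labelled WT. Its question was which kidney transcripts differ between these genotypes. In the knockout a Cre recombinase fused to a tamoxifen-responsive receptor is driven by a beta-actin promoter, which is active in most cell types and not specific to a nephron segment. Age, sex, the induction schedule, and whether WT mice carried floxed alleles or Cre or received tamoxifen: none of these is stated in the sources used here.

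Prostaglandins are short-lived lipids made from arachidonic acid. Cyclooxygenases form the common precursor, a terminal synthase turns it into prostaglandin E2, D2 or another product, and the product acts on receptors of nearby cells before a dehydrogenase inactivates it. In the kidney, prostaglandin E2 restrains salt and water reabsorption, helps keep blood flow up and takes part in renin release. Its receptors differ in their signals: EP2 and EP4 raise cyclic AMP, EP3 lowers it, and EP1 acts through calcium.

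The libraries held 13435113 to 17930347 gene counts in knockout-labelled kidneys and 13783857 to 17741722 in wildtype-labelled kidneys. Whole-gene counts of the targeted gene, Tfap2b, were higher in knockout-labelled kidneys, at 245 ± 14.1 CPM (counts scaled to library size), than in wildtype-labelled kidneys, at 103 ± 6.73 CPM (SD, n = 4 each; edgeR adjusted p = 4.18e-06). Such counts include exons outside any deleted part and check nothing about the deletion, so every direction below is that of the labels. Markers of thick ascending limb and proximal tubule were abundant in all 8 libraries. The knockout 4 library stood apart in 8 adrenal cortex genes, with a summed 242 CPM against 6.31 to 8.89 CPM in the other 7. A circadian clock score (mean log2 CPM of clock output genes minus that of clock activators) was -0.59 ± 1.04 in knockout-labelled kidneys and 1.80 ± 1.31 in wildtype-labelled kidneys (SD, n = 4 each). The groups overlapped in that score only through knockout 1 at 0.91, above wildtype 1 at 0.19. Score and label otherwise went together, so a fit holding both cannot cleanly separate them. A call that ends in such a fit names no cause. Nothing in the labels says whether the 4 kidneys of a group came from 4 animals, and p-values measure the spread between these samples.

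Of the 9 members tested, 4 differed between the groups (edgeR's quasi-likelihood test, Benjamini-Hochberg adjusted p under 0.05 over all genes tested), while 11.9% of all 15228 genes tested differed. Ptger4 and Ptgds rose, where 6.23% of all genes rose, and Ptger3 and Ptgfr fell, where 5.7% of all genes fell. Those shares stand for 949 genes that rose and 868 that fell, and scaling by library totals only gave 1658 and 508, with the same 4 members called in the same directions. The same 4 members were those whose CPM values did not overlap between the groups, against 18.5% of all genes. The median log2 fold change of the 9 was -0.02, against 0.00 over all genes, and their median absolute log2 fold change was 0.37 against 0.16. The other 5 tested members did not pass, and of the 5 receptor genes 1 rose, 2 fell, Ptger1 did not pass and Ptger2 was not tested.

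**Figure D1:**
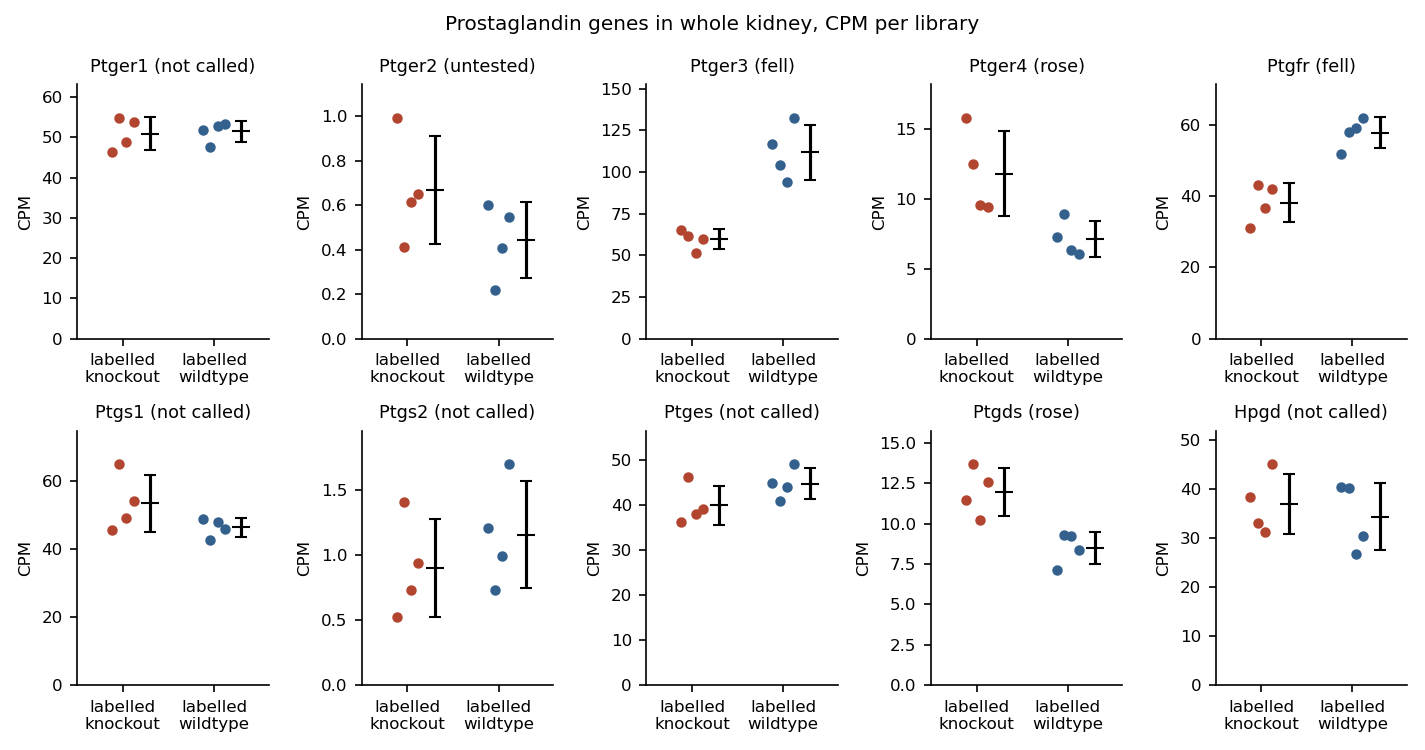
CPM (TMM-scaled, linear axes from 0) of the 10 members in each library, with knockout-labelled kidneys left of wildtype-labelled kidneys; points are libraries, and bars are the mean ± SD (n = 4). Ptger3 and Ptgfr lie lower, and Ptger4 and Ptgds higher, in every library labelled knockout than in any labelled wildtype.

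Ptger3, which encodes the cyclic AMP lowering receptor EP3 of the thick ascending limb and collecting duct, showed the largest change of the tested members. It stood at 65.4, 61.7, 51.1 and 60.0 CPM in knockout-labelled kidneys, against 117, 104, 94.2 and 133 CPM in wildtype-labelled kidneys. The lowest library labelled wildtype was well above the highest labelled knockout, and the spread was wider among the wildtype labels. Ptger3 fell by 0.91 ± 0.11 (SE) on the log2 scale, a level 1.88-fold higher in wildtype-labelled kidneys (edgeR adjusted p = 0.000643). Its counts were 831 to 1118 per library in knockout-labelled kidneys and 1423 to 2186 in wildtype-labelled kidneys. In whole kidney, fewer cells of a type and less RNA per cell cannot be told apart. Of the 9 principal cell markers tested, from the collecting duct, 7 rose and none was called lower (median log2 fold change 0.57), opposite to Ptger3. Aqp4 of that list was at -1.39 and did not pass (edgeR adjusted p = 0.067). Thick ascending limb markers moved with Ptger3: 9 of 12 fell and 1 rose, with a summed 7267 to 8244 CPM in knockout-labelled kidneys and 13498 to 16292 CPM in wildtype-labelled kidneys. Falls were not particular to that list. All 7 distal convoluted tubule markers fell, as did 4 of 12 proximal tubule markers, and none of either list rose. Which cells the fall of Ptger3 came from was not tested.

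Ptgfr, the gene of the prostaglandin F receptor FP, which is known from the distal nephron, also fell. Its values were 31.2, 43.1, 36.7 and 42.0 CPM in knockout-labelled kidneys and 52.0, 58.2, 59.3 and 62.1 CPM in wildtype-labelled kidneys. The knockout 1 library was the lowest of all 8. The log2 fold change was -0.60 ± 0.10 (SE; edgeR adjusted p = 0.0042), a level 1.52-fold higher in wildtype-labelled kidneys. All 7 distal convoluted tubule markers fell, with a summed 1972 to 2155 CPM in knockout-labelled kidneys and 3783 to 4238 CPM in wildtype-labelled kidneys. Thick ascending limb markers fell too, 9 of 12 with 1 rising (median log2 fold change -0.62). Of 9 principal cell markers tested, 7 rose and none was called lower. From which cells the fall of Ptgfr came was not tested. Adding the clock score to the fit gave Ptgfr a log2 fold change of -0.64, which no longer passed (adjusted p = 0.0598).

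Ptger4, which encodes the cyclic AMP raising receptor EP4, present on vessels, glomeruli and leukocytes among other sites, moved the other way. It stood at 15.8, 12.5, 9.51 and 9.39 CPM in knockout-labelled kidneys, against 7.23, 8.91, 6.34 and 6.01 CPM in wildtype-labelled kidneys. The groups were close, since knockout 4 at 9.39 CPM was only just above wildtype 2 at 8.91 CPM. Ptger4 rose 1.66-fold (log2 fold change 0.73 ± 0.19 (SE), edgeR adjusted p = 0.031). The call ended when any of 5 libraries was left out: the log2 fold change was then 0.56 without knockout 1, 0.70 without knockout 2, 0.74 without wildtype 1, 0.68 without wildtype 3 and 0.66 without wildtype 4, with edgeR adjusted p of 0.0573 to 0.0839. Adding the clock score to the fit gave 0.89 (adjusted p = 0.108). Macrophage and dendritic cell markers moved with Ptger4: 9 of 13 rose and none fell, with a summed 772 to 1391 CPM in knockout-labelled kidneys and 415 to 665 CPM in wildtype-labelled kidneys, and no marker of the list was at 0. No endothelium or podocyte marker rose: 3 of 8 endothelium markers and 2 of 8 podocyte markers fell, with median log2 fold changes of -0.35 and -0.20. A rise was not particular to the macrophage and dendritic cell list. Of the fibroblast and pericyte markers 5 of 8 rose, and of the tubular injury markers 9 of 12, with none falling (median log2 fold changes 0.92 and 0.82). In the collecting duct, 7 of 9 principal cell and 7 of 10 intercalated cell markers rose. None of these was called lower (median log2 fold changes 0.57 and 0.93). Which cells the change in Ptger4 came from was not tested. Of the exon bases of Ptger4 in the GENCODE M21 annotation, 16.5% are shared with genes on the other strand, among them Ttc33, which did not pass the test (log2 fold change 0.06, adjusted p = 0.757).

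Ptger1, the gene of the calcium-coupled receptor EP1 of the collecting duct, did not pass the test. It was at 50.9 ± 4.11 CPM in knockout-labelled kidneys and 51.5 ± 2.60 CPM in wildtype-labelled kidneys (SD, n = 4 each), with a log2 fold change of -0.02 (95% interval -0.18 to 0.15; edgeR adjusted p = 0.913) whose sign turned with library totals only (0.089). The interval leaves no room for a change of the size seen in Ptger3. The value is uncertain, because not all exon bases of Ptger1 are its own in the GENCODE M21 annotation and the counts were not stranded. Ptger2, which encodes EP2, was too low to be tested, with 17, 7, 11 and 9 counts in knockout-labelled kidneys and 8, 3, 7 and 9 in wildtype-labelled kidneys. Without the filter its log2 fold change was 0.57 (95% interval -0.33 to 1.48; edgeR adjusted p = 0.533), so that no change was detected.

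Neither cyclooxygenase gene passed the test. Ptgs1, the constitutive enzyme of collecting duct, vessels and some leukocytes, had 45.7, 65.0, 49.0 and 54.2 CPM in knockout-labelled kidneys and 48.9, 42.7, 48.0 and 46.0 CPM in wildtype-labelled kidneys. The groups overlapped, with knockout 2 as the highest library. Its log2 fold change was 0.21 (95% interval -0.02 to 0.43; edgeR adjusted p = 0.234). Ptgs2, the inducible enzyme of macula densa and medullary interstitial cells, had only 9 to 24 counts in knockout-labelled kidneys and 10 to 28 in wildtype-labelled kidneys. Its interval was correspondingly wide, from -1.17 to 0.43 around a log2 fold change of -0.37 (adjusted p = 0.557).

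Ptges encodes the inducible microsomal synthase of prostaglandin E2 and stood at 39.9 ± 4.36 CPM in knockout-labelled kidneys and 44.8 ± 3.41 CPM in wildtype-labelled kidneys (SD, n = 4 each). It did not pass (log2 fold change -0.16, 95% interval -0.36 to 0.03; edgeR adjusted p = 0.272). Ptgds, the lipocalin-type synthase of prostaglandin D2, rose. Its values were 11.5, 13.7, 10.2 and 12.6 CPM in knockout-labelled kidneys and 7.16, 9.28, 9.26 and 8.37 CPM in wildtype-labelled kidneys, and the groups were close without overlapping. The rise was 1.41-fold (log2 fold change 0.49 ± 0.13 (SE), edgeR adjusted p = 0.0336). That call ended without knockout 2 (log2 fold change 0.42), knockout 4 (0.47), wildtype 1 (0.42), wildtype 3 (0.53) or wildtype 4 (0.48), with adjusted p of 0.0533 to 0.105. Adding the clock score to the fit ended it too (0.63, adjusted p = 0.119). Hpgd, whose product carries out the first step of prostaglandin breakdown, ranged from 31.3 to 45.1 CPM in knockout-labelled kidneys and from 26.7 to 40.3 CPM in wildtype-labelled kidneys. Its log2 fold change was 0.11 (95% interval -0.24 to 0.45; edgeR adjusted p = 0.712), and -0.080 with the clock score added to the fit.

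The 250 bases upstream of the RefSeq start (build GRCm38.p6, gene strand) are shown for the 4 members that differed, because the deleted factor, AP-2 beta, is known to bind GC-rich palindromes. Capitals mark matches to GCCNNNGGC or GCCNNNNGGC, which read alike on both strands.

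Ptger3, chr3:157566626-157566875, plus strand: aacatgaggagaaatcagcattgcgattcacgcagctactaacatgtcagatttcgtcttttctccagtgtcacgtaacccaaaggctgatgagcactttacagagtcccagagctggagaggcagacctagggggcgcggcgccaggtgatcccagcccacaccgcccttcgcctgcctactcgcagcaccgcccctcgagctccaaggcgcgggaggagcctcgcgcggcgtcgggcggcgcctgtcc
Ptgfr, chr3:151837529-151837778, minus strand: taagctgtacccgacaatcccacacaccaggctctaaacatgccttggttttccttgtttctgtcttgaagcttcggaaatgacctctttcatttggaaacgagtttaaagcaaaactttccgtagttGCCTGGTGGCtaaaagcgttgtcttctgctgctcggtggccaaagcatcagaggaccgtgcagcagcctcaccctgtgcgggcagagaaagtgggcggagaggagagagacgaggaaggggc
Ptger4, chr15:5244188-5244437, minus strand: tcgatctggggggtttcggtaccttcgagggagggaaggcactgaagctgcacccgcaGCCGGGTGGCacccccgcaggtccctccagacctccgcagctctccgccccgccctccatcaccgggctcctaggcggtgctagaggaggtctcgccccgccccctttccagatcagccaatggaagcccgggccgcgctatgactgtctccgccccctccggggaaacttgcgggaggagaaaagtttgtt
Ptgds, chr2:25469750-25469999, minus strand: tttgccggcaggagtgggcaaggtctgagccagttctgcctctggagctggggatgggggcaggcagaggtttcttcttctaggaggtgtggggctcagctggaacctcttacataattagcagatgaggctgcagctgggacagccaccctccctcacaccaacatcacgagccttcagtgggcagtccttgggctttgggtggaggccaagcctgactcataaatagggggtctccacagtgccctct

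The Ptgfr window held 1 match, 122 bases before the start, and the Ptger4 window held 1, 192 bases before it. The Ptger3 and Ptgds windows held none. Of the other members with a window, Ptgs2 held 1 match, Hpgd held 2, and Ptgs1, Ptges and Ptger2 held none. Over all 32851 windows of this length, 22.97% held at least 1 match of either form. Thus 1 falling and 1 rising member carried a match, and 1 of each did not. A match is a run of letters and says nothing about binding. GC content was 62.0% for Ptger3, 52.0% for Ptgfr, 66.8% for Ptger4 and 58.4% for Ptgds, against a median of 52.4% over all windows.

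Levels were compared between genes per kilobase of exon (CPM per kb, exon lengths from GENCODE M21). In knockout-labelled kidneys Hpgd led at 21.9 ± 3.67 CPM per kb (SD, n = 4). Ptger3, at 10.5 ± 1.07, stood below Ptgs1 at 13.8 ± 2.17 and within the spread of Ptges at 10.2 ± 1.11 CPM per kb, and Ptgds, at 7.27 ± 0.90, above Ptgfr at 5.64 ± 0.81 CPM per kb. In wildtype-labelled kidneys Hpgd, at 20.4 ± 4.11, and Ptger3, at 19.7 ± 2.92 CPM per kb (SD, n = 4), were highest and did not differ beyond their spread. Ptgs1 followed at 11.9 ± 0.71 and Ptges at 11.4 ± 0.87, again within their spread of each other, then Ptgfr at 8.54 ± 0.63 and Ptgds at 5.16 ± 0.61 CPM per kb. Ptger4 at 1.07 ± 0.20, Ptgs2 at 0.252 ± 0.0896 and Ptger2 at 0.0855 ± 0.0329 CPM per kb were lowest. Ptger1 has no firm place in either order, since in wildtype-labelled kidneys it was at 9.43 CPM per kb of all exon bases and at 32.5 per kb of exon bases that no other counted gene shares.

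EP3 and EP4 act in opposite directions on cyclic AMP, and their transcripts moved in opposite directions. The ratio of Ptger3 to Ptger4, in CPM per kb, was 4.84, 5.78, 6.28 and 7.47 in knockout-labelled kidneys, against 18.8, 13.6, 17.3 and 25.8 in wildtype-labelled kidneys. The highest ratio labelled knockout was well under the lowest labelled wildtype. The means were 6.09 ± 1.10 and 18.9 ± 5.09 (SD, n = 4 each), in the same order. This ratio restates both fold changes and was not tested.

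Members were then set against markers of cells known to express them, as the member's log2 CPM minus the mean log2 CPM of the markers in each library. There were 9 such pairs, tested by exact two-sided permutation over 70 assignments, for which the smallest p is 0.0286. The 9 share libraries, members and marker lists and are not independent. A member that stays level gives a difference wherever its markers moved, so a pair is no test of the member alone. Against the collecting duct principal cell markers, of which 7 of 9 tested rose, 3 members that did not pass by themselves were lower. The Ptges difference was -1.62 ± 0.06 in knockout-labelled kidneys and -1.03 ± 0.17 in wildtype-labelled kidneys (SD, n = 4 each), a change of -0.59 (exact permutation p = 0.0286, adjusted p = 0.0429). The change was -0.45 for Ptger1 and -0.23 for Ptgs1, with the same exact permutation p and adjusted p. Of the principal cell markers, Scnn1g had the smallest adjusted p. It encodes a sodium channel subunit and stood at 137 ± 12.3 CPM in knockout-labelled kidneys and 92.9 ± 4.77 CPM in wildtype-labelled kidneys (SD, n = 4 each; edgeR adjusted p = 0.00125). The 2 that did not pass had lower mean levels: Aqp4, a water channel, was at 65.7 ± 5.44 CPM in knockout-labelled kidneys and 172 ± 102 CPM in wildtype-labelled kidneys (SD, n = 4 each; log2 fold change -1.39, edgeR adjusted p = 0.067), without overlap, and Elf5 had a log2 fold change of -0.13. With the median of the markers in place of the mean, the changes were larger, at -0.71, -0.56 and -0.35 for Ptges, Ptger1 and Ptgs1. Each kept the smallest exact permutation p, 0.0286, but the adjusted p was 0.0514 and did not pass.

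Against the thick ascending limb markers, Ptger3 was at -1.61 ± 0.16 in knockout-labelled kidneys and -1.36 ± 0.15 in wildtype-labelled kidneys (SD, n = 4 each), a change of -0.25 that did not pass (exact permutation p = 0.0571, adjusted p = 0.0643). The list itself had a median log2 fold change of -0.62, from 0.27 for Tmem207 down to -1.70 for Egf, and Ptger3 at -0.91 lay inside that range. Ptger4 lay at -1.40 ± 0.24 and -0.99 ± 0.19 against the macrophage and dendritic cell markers, in the same order of groups, a change of -0.42 (exact permutation adjusted p = 0.0643). Ptger4 thus rose less than the median marker of that list, whose log2 fold change was 1.17, without a difference past the threshold. Ptgs1 changed by -0.92 against the same markers (exact permutation adjusted p = 0.0429; adjusted p = 0.0514 for -1.14 with the median of the markers).

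The Ptgfr pair depended on how the markers were summarised. Against the mean of 7 distal convoluted tubule markers, Ptgfr was at -1.32 ± 0.28 in knockout-labelled kidneys and -2.25 ± 0.11 in wildtype-labelled kidneys (SD, n = 4 each), a change of 0.93 (exact permutation p = 0.0286, adjusted p = 0.0429). Against their median the change was 0.0031 (exact permutation adjusted p = 0.971). Pvalb, which encodes the calcium buffer parvalbumin, had a log2 fold change of -5.90 in that list, whereas the other 6 markers lay between -0.53 and -1.21. The Ptgs2 pair rests on few counts and on 3 macula densa markers, which did not move alike. Avpr1a rose (log2 fold change 1.10). Pappa2 (0.89, edgeR adjusted p = 0.0958) and Nos1 (-0.10, edgeR adjusted p = 0.849) did not pass. The change of the Ptgs2 pair was -0.94 (exact permutation adjusted p = 0.0429), and -0.67 with the median of the markers (adjusted p = 0.129). Hpgd changed by 0.62 against 12 proximal tubule markers and did not pass (exact permutation p = 0.0857).

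**Figure D2:**
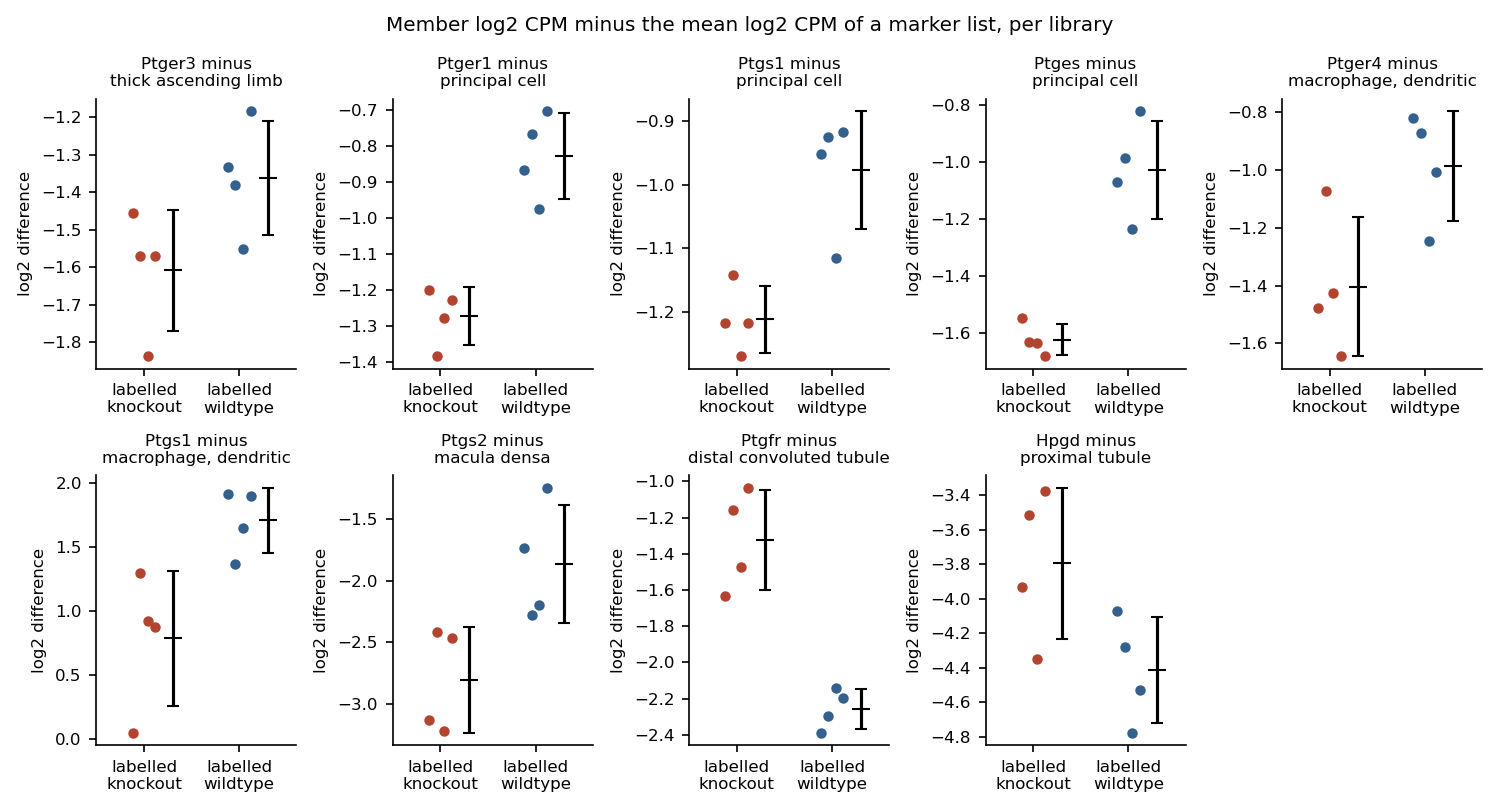
Log2 CPM of a member minus the mean log2 CPM of a marker list in each library (linear axis in log2 units that does not start at 0); points are libraries, knockout-labelled kidneys on the left, and bars are the mean ± SD (n = 4). Ptges, Ptger1 and Ptgs1 lie lower relative to principal cell markers in every library labelled knockout, and Ptgfr lies higher relative to distal convoluted tubule markers, a list that holds Pvalb.

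Other genes of the eicosanoid pathway, 46 of them with a row and 33 tested, gave 6 that rose, 3 that fell and 24 that did not pass, where 6.23% of all genes tested rose and 5.7% fell. Their median log2 fold change was -0.05. None of the 7 tested phospholipase genes, which release arachidonic acid, passed; their log2 fold changes ran from -0.32 to 0.40. The thromboxane synthase gene Tbxas1 and the prostacyclin synthase gene Ptgis did not pass either. Among the 9 other synthases, Hpgds, the hematopoietic prostaglandin D synthase, rose 2.60-fold. It had 5.44, 3.69, 3.47 and 3.97 CPM in knockout-labelled kidneys and 1.21, 2.19, 1.63 and 1.33 CPM in wildtype-labelled kidneys (log2 fold change 1.38 ± 0.24 (SE), edgeR adjusted p = 0.00432). Both prostaglandin D synthase genes, Ptgds and Hpgds, were therefore higher in every library labelled knockout. The genes of the prostaglandin D2 receptors, Ptgdr and Ptgdr2, were too low to test, with at most 3 counts in any library. Akr1b3, an aldose reductase that can also form prostaglandin F2 alpha, fell to 10.5 ± 1.56 CPM in knockout-labelled kidneys, against 21.6 ± 3.21 CPM in wildtype-labelled kidneys (SD, n = 4 each; edgeR adjusted p = 0.00104). Of the other synthases, Akr1c18 was far more abundant, at 223 ± 48.5 CPM in knockout-labelled kidneys and 312 ± 105 CPM in wildtype-labelled kidneys (SD, n = 4 each). It did not pass (log2 fold change -0.49, edgeR adjusted p = 0.239), nor did Fam213b (-0.64, adjusted p = 0.281) or Akr1b8 (0.50, adjusted p = 0.127). Akr1b3 and the F receptor gene Ptgfr both fell. Ptgfrn, which encodes a membrane protein that binds the F receptor and dampens ligand binding, rose by 0.47 ± 0.11 (SE) on the log2 scale (edgeR adjusted p = 0.0188). Ptgfrn did not pass without knockout 4 (0.43), without wildtype 2 (0.45) or without both knockout 1 and knockout 4 (edgeR adjusted p = 0.160).

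**Figure D3:**
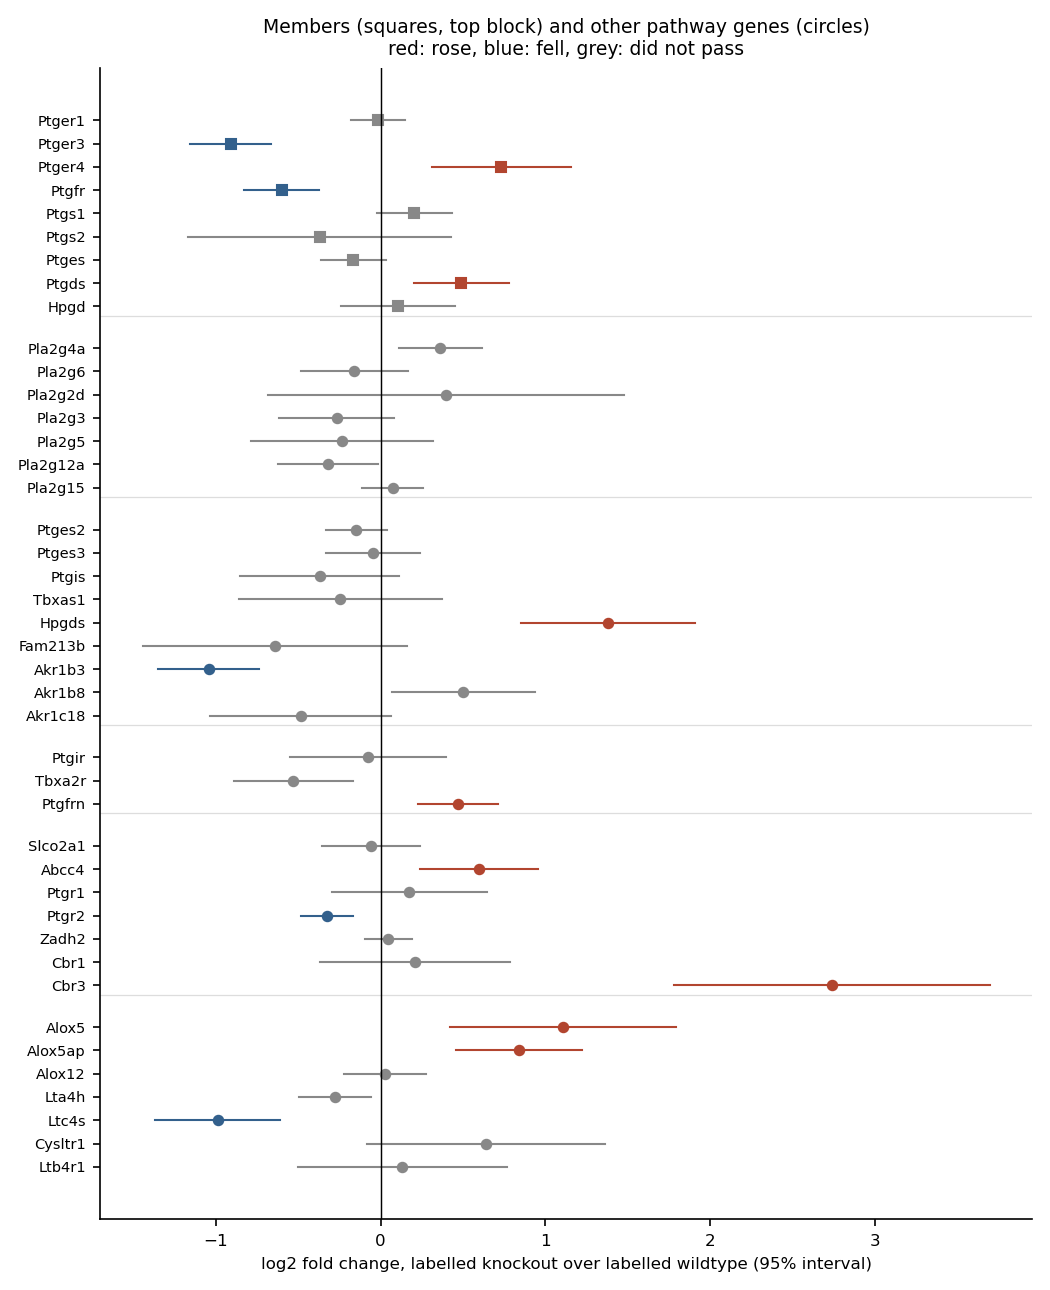
Log2 fold change with its 95% interval (edgeR) for the 9 tested members (squares) and the 33 other tested pathway genes (circles), in blocks of arachidonate release, synthases, receptors, transport and breakdown, and leukotrienes; colour gives the call. Among the members Ptger3 and Ptgfr lie left of 0 and Ptger4 and Ptgds right of it, and Cbr3 has the largest value at 2.74.

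Of the 7 transport and breakdown genes tested, 2 rose, 1 fell and 4 (Slco2a1, Ptgr1, Zadh2 and Cbr1) did not pass. Cbr3, a carbonyl reductase related to the prostaglandin reductase Cbr1, rose 6.66-fold, with 8.53, 31.1, 18.6 and 31.3 CPM in knockout-labelled kidneys and 4.07, 2.78, 2.97 and 3.58 CPM in wildtype-labelled kidneys (edgeR adjusted p = 0.00503). The rise was uneven, with knockout 1 far below the other 3. Adding the clock score to the fit gave Cbr3 a log2 fold change of 1.80, against 2.74 without it, and the call ended (adjusted p = 0.156). Abcc4, an exporter of prostaglandins, rose by 0.60 ± 0.16 (SE) on the log2 scale (edgeR adjusted p = 0.0395), although knockout 4 at 143 CPM lay under wildtype 3 at 152 CPM. It did not pass when knockout 1 (0.58), knockout 2 (0.56), knockout 3 (0.55), wildtype 1 (0.63), wildtype 2 (0.55) or wildtype 4 (0.48) was left out, with the clock score added to the fit (0.68, edgeR adjusted p = 0.203), without both knockout 1 and knockout 4 (0.72, adjusted p = 0.0572), or without the filter on low counts (0.59, adjusted p = 0.0799). Ptgr2, which reduces the product of the Hpgd step further, fell by 0.33 ± 0.073 (SE; edgeR adjusted p = 0.0154). Without knockout 4 the change was -0.30 and did not pass (adjusted p = 0.0531), nor did it without both knockout 1 and knockout 4 (-0.36, adjusted p = 0.0504) or with the clock score added to the fit (-0.27, adjusted p = 0.194). It had 178, 149, 169 and 154 CPM in knockout-labelled kidneys and 202, 211, 200 and 203 CPM in wildtype-labelled kidneys. Slco2a1, the prostaglandin uptake transporter, did not pass, at -0.06 on the log2 scale (edgeR adjusted p = 0.813).

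In the leukotriene branch, which uses the same substrate, Alox5 and its partner Alox5ap rose and Ltc4s fell. Alox5ap, the activating protein of 5-lipoxygenase, was at 6.55 ± 1.20 CPM in knockout-labelled kidneys and 3.65 ± 0.42 CPM in wildtype-labelled kidneys (SD, n = 4 each; edgeR adjusted p = 0.0107). Alox5 itself was at 1.87 ± 0.49 and 0.85 ± 0.29 CPM in the same order (edgeR adjusted p = 0.0415), and did not pass without any 1 of 7 libraries, all but knockout 3 (log2 fold change 0.91 to 1.25 over the 8 omissions). Ltc4s, the leukotriene C4 synthase, was at 2.44 ± 0.26 CPM in knockout-labelled kidneys and 4.85 ± 0.63 CPM in wildtype-labelled kidneys (SD, n = 4 each; edgeR adjusted p = 0.0043). Adding the clock score to the fit gave Ltc4s a log2 fold change of -0.94 that did not pass (adjusted p = 0.0801). Without both knockout 1 and knockout 4, neither Alox5 nor Alox5ap passed (edgeR adjusted p = 0.0971 for Alox5ap). Macrophage and dendritic cell markers, with the values given beside Ptger4, moved with Alox5, Alox5ap and Hpgds, which leukocytes are known to express. Ltc4s moved the other way, and 4 of the 7 leukotriene branch genes tested did not pass. The part of leukocytes in these changes was not tested.

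**Figure D4:**
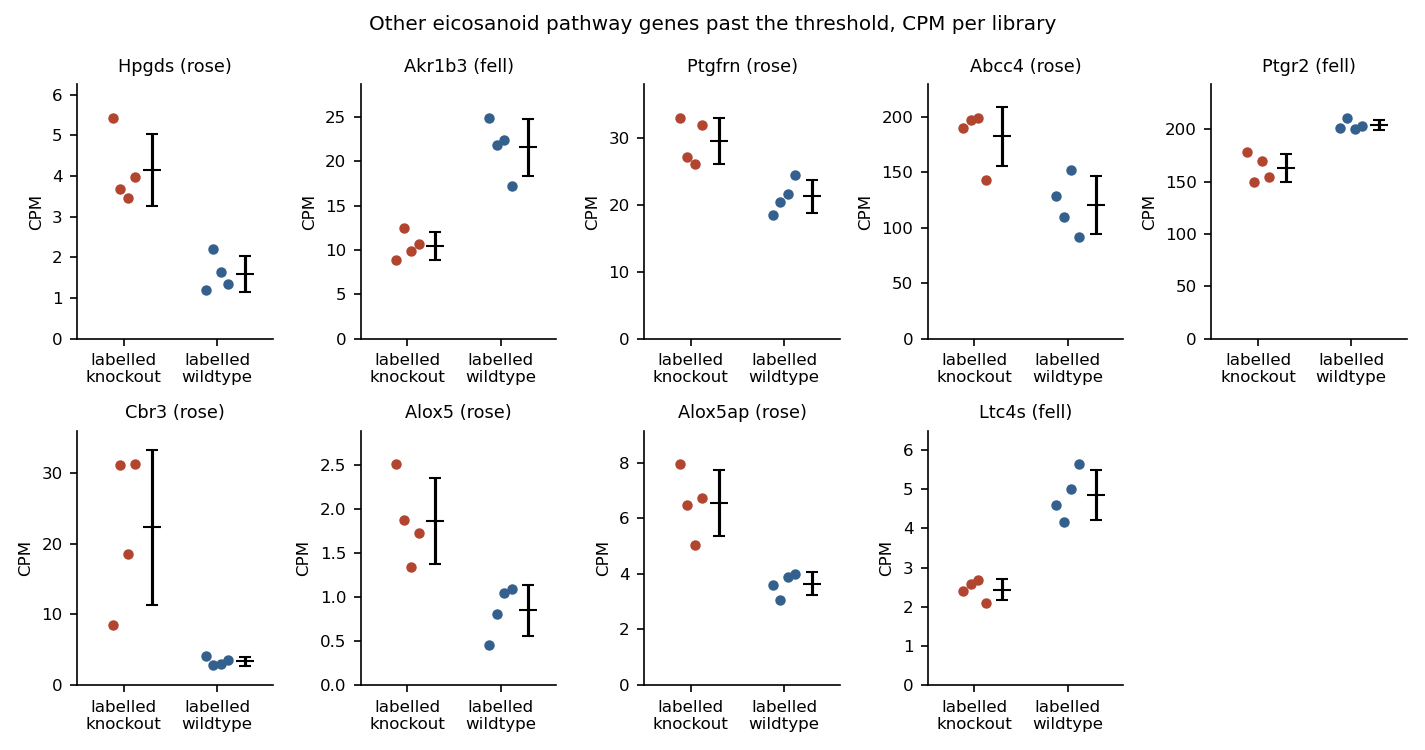
CPM (linear axes from 0) of the 9 other pathway genes that passed the test, in each library, with knockout-labelled kidneys on the left; points are libraries and bars the mean ± SD (n = 4). The groups overlap for Abcc4, and Cbr3 spreads from 8.53 to 31.3 CPM among knockout-labelled kidneys.

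The genes most like each called member were taken as the 3 with the smallest root mean square difference in log2 CPM over the 8 libraries, after subtraction of the wildtype mean, among 13035 genes of mean log2 CPM of at least 1. For Ptger3 they were Umod, Cyb5rl and Robo3, at 0.13, 0.13 and 0.15 log2 units. Umod, which encodes uromodulin of the thick ascending limb, had 3371 CPM in knockout-labelled kidneys and 6791 CPM in wildtype-labelled kidneys on average. For Ptgfr they were Flvcr1, Kcnj1 and Ppp1r1a, at 0.11, 0.11 and 0.12 log2 units. Kcnj1, the potassium channel ROMK, and Ppp1r1a, a phosphatase inhibitor, stand on the thick ascending limb list, as does Umod. Neighbours were picked with the group difference included, so a like fold change is built in, and a shared cell of origin was not tested. For Ptger4 they were Trp53inp1, Fgf10 and Fgl2, at 0.12 each, and for Ptgds they included Pik3r3 and Eml4, at 0.09 and 0.10 log2 units. Of the neighbours named, Fgf10 and Fgl2 did not pass the test themselves (edgeR adjusted p = 0.0723 and 0.0706).

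The calls of the members differed in how they held over 18 other settings. Ptger3 passed in all 18, with log2 fold changes of -0.99 to -0.80. Ptgfr passed in 17, Ptger4 in 11 and Ptgds in 10, each with its sign kept in all 18. Without both knockout 1 and knockout 4, Ptger3 and Ptgfr fell, at -0.99 and -0.54, and Ptger4 and Ptgds did not pass, at 0.63 and 0.49 (edgeR adjusted p = 0.0992 and 0.139). Without knockout 4 alone, the library with adrenal transcripts, the log2 fold changes were -0.91 for Ptger3, -0.65 for Ptgfr, 0.82 for Ptger4 and 0.47 for Ptgds. None of the 5 uncalled members passed in any of these settings that gave a value.

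**Figure D5:**
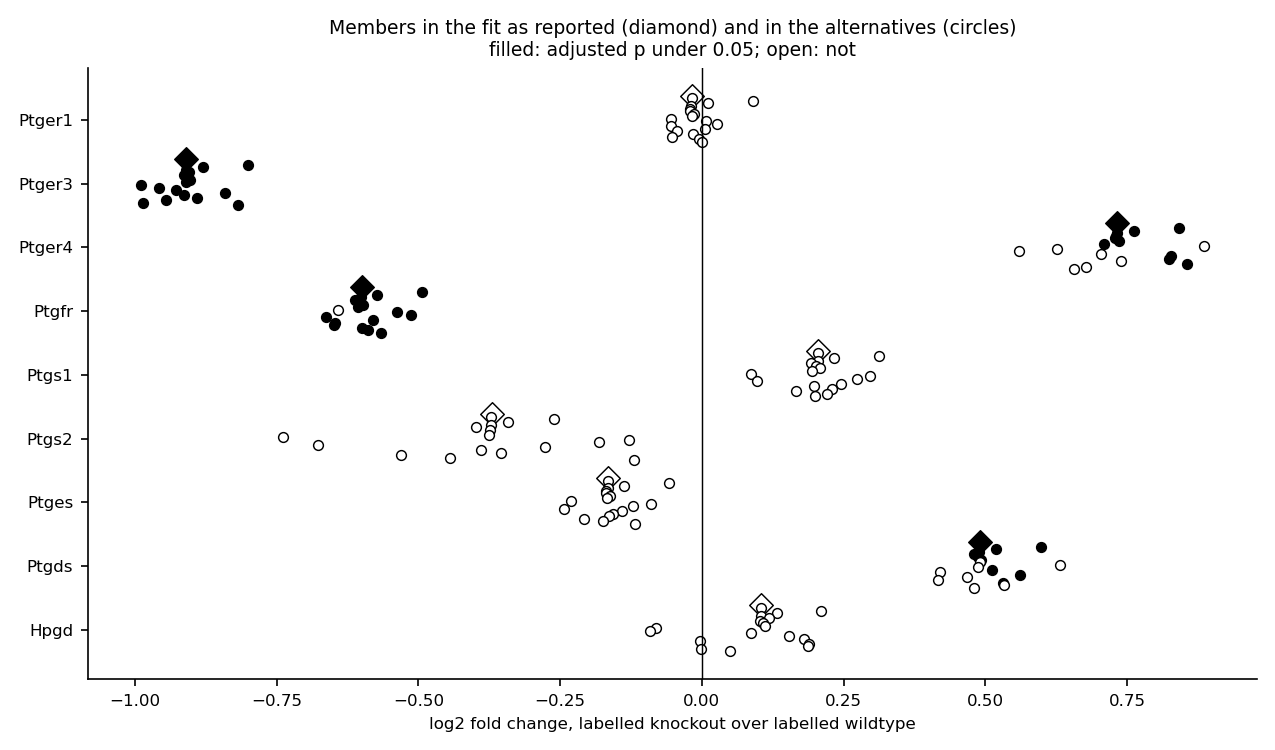
Log2 fold change (labelled knockout over labelled wildtype) of the 9 tested members in the fit as reported (diamonds) and under the alternative settings (circles); filled symbols have adjusted p under 0.05. Ptger3 is filled throughout, Ptgfr in all but 1 setting, and Ptger4 and Ptgds are mixed, while the other 5 members are open throughout.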

How the data were processed

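Whole-kidney RNA libraries were made with a directional kit, per the labels' protocols. The deposited values are whole-number counts of reads per Ensembl gene, 1 file per library, not normalised. The submitters' processing notes name STAR, HTSeq, edgeR and the mouse build mm9; which version and annotation were used, and for which step each tool served, is not given in the sources used here. Files of these counts carry a note of unstranded counting, so reads of overlapping genes on opposite strands cannot be told apart. Rows that name no gene were left out of library sizes; 63.8% to 69.1% of records were assigned to a gene.

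Symbols came from a gene name table that matched 32860 of 37583 identifiers. Genes kept by filterByExpr, 15228, were scaled by TMM and compared with edgeR 4.0.16 (R 4.3.3; quasi-likelihood, robust, no covariate, two-sided; Benjamini-Hochberg over all genes; threshold 0.05). Marker pairs used log2 CPM with a prior count of 2. Alternatives used DESeq2 1.42.0 and limma 3.58.1, other scalings and filters, a replicate block, the clock score, and omission of libraries. The fits were also run on counts simulated gene by gene with planted changes. These held no clock, adrenal or cell type differences, so the run does not bear on how those affect the calls. Exon lengths and overlaps came from GENCODE M21 and promoter windows from RefSeq, both on GRCm38, a build other than that of the counts, and are therefore approximate for them. The rule for named genes took all 10 members, every pathway gene past the threshold, 3 neighbours of each called member and up to 3 genes of a paired marker list by adjusted p; Tmem207, Pvalb, Aqp4, Elf5, the uncalled pathway genes and the low receptors were named after their values were seen. A neighbour of Ptgds and a gene that shares exon bases with Ptger1 are not reported here. The members and lists were chosen with earlier results of these data known.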

Additional observations from a re-analysis of the deposited data

Results flagged for a closer look

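In 62 groups of 4 values (members, pathway genes past the threshold, marker pairs and library measures), 1 kidney lay far from the rest of its group in 2, measured as its gap to the nearest value over the range; chance gives about 1 in 20. Abcc4 was lowest in knockout 4, at 143 CPM, where knockout 1 to 3 had 190.4 to 199.5 CPM (0.8387). The 8 adrenal cortex genes were highest in knockout 4, at 242 CPM, where knockout 1 to 3 had 7.72 to 8.89 CPM (0.995).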

How the results depend on the processing

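Over all genes, 1817 differed (949 rose, 868 fell); with a replicate block 1094 differed (577 and 517), with the clock score added 700 (460 and 240) and without both knockout 1 and knockout 4 912 (502 and 410). With library totals only, 1658 rose and 508 fell, and the all-gene median log2 fold change was 0.11. Leaving out 1 library gave 1076 to 1940 genes, 588 to 977 of them rising and 488 to 963 falling; there were 1076 without knockout 2 and 1176 without knockout 4, and 576 fell without wildtype 3. Of the members, 4 differed (2 rose, 2 fell); with the clock score 1 differed (0 rose, 1 fell), without both knockout 1 and knockout 4 2 did (0 rose), with a replicate block 1 rose, and leaving out 1 library gave 2 to 4 (0 to 2 rising, 2 falling). Of the other pathway genes, 9 differed; without both knockout 1 and knockout 4 4 did (2 rose), with the clock score 1 fell, and leaving out 1 library gave 6 to 9 (3 to 6 rising, the 3 without wildtype 2, and 2 to 4 falling). The causes of these shifts were not tested. Ptgr2 did not pass with library totals only.

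Replicate numbers did not pair the libraries: deviations from the group means correlated at -0.22, -0.21, -0.05 and 0.16 within numbers 1 to 4, and 1 of 8 libraries correlated best with its own number. Under the replicate block the calls of Ptgds, Ptgr2 and Alox5 ended.

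Uncalled values near 0 changed sign: Ptger1 (-0.02) was 0.089 with library totals only, 0.011 with upper quartile factors, 0.0080 without both knockout 1 and knockout 4 and -0.055 to 0.027 when 1 library was left out; Hpgd (0.11) was -0.080 with the clock score, -0.092 without both knockout 1 and knockout 4 and -0.0032 to 0.19 when 1 was left out.

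With the median of the markers, the changes against principal cell markers were -0.56, -0.35 and -0.71 for Ptger1, Ptgs1 and Ptges. They were -1.14 for Ptgs1 against macrophages, -0.67 for Ptgs2 and 0.0031 for Ptgfr. None of these had an adjusted p past the threshold. A prior count of 0.5 or library totals only moved no pair across it. With 7 libraries the smallest exact p is 0.0571, so omissions gave values only: Ptger3 -0.31 to -0.17, Ptger1 -0.49 to -0.40, Ptgs1 -0.28 to -0.21, Ptges -0.66 to -0.53, Ptger4 -0.53 to -0.34, Ptgs1 against macrophages -1.09 to -0.68, Ptgs2 -1.08 to -0.74, Ptgfr 0.83 to 1.03 and Hpgd 0.48 to 0.80. Per kb of unshared exon bases, a setting added after seeing the data, wildtype levels were 32.5 for Ptger1 and 1.28 for Ptger4. Ptger2 and Ptgs2 had the fewest counts and the widest intervals of the members.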
